A study of Mus musculus with 16 samples.

Results

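Nomo1, Kcnj11 and Abcc8 lie next to each other on mouse chromosome 7, and their locus was described here by the accessibility of its chromatin in pancreatic islets. It was taken as the 3 gene bodies, the DNA between them and 3 kb upstream of each start, chr7:46030698-46183033 in mm10, a stretch of 152336 bases. Every region in it was a member, whatever its signal. When the peak lists of all 16 samples were merged, 33 of 362076 regions lay in the locus, and 7 of the 33 had a peak in all 16 samples. Over the whole series, 11.7% of the merged regions had one. The samples were ATAC-seq libraries, each from 50 islets, and ATAC-seq marks open DNA because a transposase cuts it and leaves sequencing adapters there. They came from 8 inbred strains, the founders of the Diversity Outbred mice, with 1 female and 1 male per strain, and no allele, treatment or age was given in the labels. The strains were the classical strains 129S1_SvImJ (129), A_J (AJ), C57BL/6J (B6), NOD_ShiLtJ (NOD) and NZO_HlLtJ (NZO) and the wild-derived strains CAST_EiJ (CAST), PWK_PhJ (PWK) and WSB_EiJ (WSB). The female and the male were the only replicates of a strain, so an SD below is over n = 2 and also holds any difference between the sexes.

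Kcnj11 and Abcc8 encode the partner subunits of the ATP-sensitive potassium channel of beta cells. Kcnj11 forms the pore and Abcc8 forms the sulphonylurea receptor around it. The channel closes when glucose metabolism raises ATP, the membrane depolarises, calcium enters and insulin is released, and mutations in either gene are known causes of neonatal diabetes and of congenital hyperinsulinism. Nomo1 encodes a membrane protein of the endoplasmic reticulum that takes part in the making of membrane proteins. Nomo1 (46033698 to 46084212) is read on the plus strand, and Kcnj11 (46093953 to 46100764) and Abcc8 (46104523 to 46180033) on the minus strand, so the 3′ end of Abcc8 lies beside the start of Kcnj11.

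Sequences of 4 places are shown, because they carry the promoter and the intronic peaks that the results turn on. Of the 3 genes, 1 (Nomo1) had a promoter in the RefSeq table of GRCm38.p6, and Kcnj11 and Abcc8 did not. The Nomo1 window is the 250 bases before its RefSeq start (chr7:46033446-46033695). The other windows are 200 bases around the median position of the highest summits of the samples, in Abcc8 intron 10 (chr7:46145895-46146094), intron 19 (chr7:46123111-46123310) and intron 16 (chr7:46131254-46131453). All are the mm10 plus strand, which is the C57BL/6J sequence, so they show no variant of another strain. Capitals mark matches, on either strand, to any of 12 short motifs that were searched.
Nomo1 promoter: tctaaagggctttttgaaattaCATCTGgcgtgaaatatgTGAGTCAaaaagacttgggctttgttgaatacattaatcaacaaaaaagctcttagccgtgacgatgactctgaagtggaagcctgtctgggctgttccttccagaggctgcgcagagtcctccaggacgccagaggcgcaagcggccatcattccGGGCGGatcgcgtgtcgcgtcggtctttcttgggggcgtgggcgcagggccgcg
Abcc8 intron 10: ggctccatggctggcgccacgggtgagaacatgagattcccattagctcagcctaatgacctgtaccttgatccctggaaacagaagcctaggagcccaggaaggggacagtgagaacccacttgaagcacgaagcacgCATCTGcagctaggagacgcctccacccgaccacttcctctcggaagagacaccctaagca
Abcc8 intron 19: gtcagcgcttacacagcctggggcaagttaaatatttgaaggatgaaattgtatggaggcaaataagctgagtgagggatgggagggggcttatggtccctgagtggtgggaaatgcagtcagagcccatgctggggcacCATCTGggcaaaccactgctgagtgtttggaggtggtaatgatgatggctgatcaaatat
Abcc8 intron 16: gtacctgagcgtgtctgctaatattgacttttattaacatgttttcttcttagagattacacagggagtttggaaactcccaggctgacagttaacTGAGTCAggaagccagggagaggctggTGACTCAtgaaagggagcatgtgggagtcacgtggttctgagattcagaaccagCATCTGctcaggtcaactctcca

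Of the motifs, those that matched were CAGATG, an E-box of the kind bound by NeuroD, TGACTCA, the AP-1 site, and GGGCGG, the GC box of Sp factors. The forkhead TGTTTAC, the homeodomain TAATTA, the Maf site TGCTGAC, the TCF site CTTTGAT, the ETS site CCGGAAG, the YY1-type AAGATGG, the cAMP response element TGACGTCA, the NF-Y site CCAAT and the core promoter element TATAAA had no match in these windows. The matches did not overlap one another. CAGATG was found in each of the 3 Abcc8 windows, 1 time in each, and 19.4% of 41366 windows of the same length around regions shared by all samples held it. The intron 16 window held TGACTCA at 2 places, and 9.51% of the shared windows held it. The Nomo1 window held GGGCGG (found in 32.7% of 32851 promoter windows of 250 bases), CAGATG (14.4%) and TGACTCA (4.46%), each at 1 place. The GC content was 54% in the Nomo1 window, 57% in intron 10, 50% in intron 19 and 47% in intron 16, and the median of the shared windows was 50%. A match is a match of letters and not a site that a factor was shown to bind.

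Signal is given as scaled signal, the highest summit of a sample in a region divided by the median of that sample over the 42427 regions called in all 16. A value of 1 is thus the typical shared region of that sample, and 0 means that no peak passed the threshold of the authors. The samples had from 80392 to 173735 peaks, and the median that served as the divisor was lowest for the PWK male (32) and highest for the CAST male (136). The strongest region of the locus lay over Abcc8 introns 16 to 21 (46121600 to 46130092), where the scaled signal ran from 3.65 in the AJ female over a median of 4.70 to 7.26 in the 129 female. This median was above that of 94.2% of the shared regions. Its highest summits clustered in Abcc8 intron 19 between 46123126 and 46123294 in all 16 samples, and the annotation has the start of Gm45486, a gene antisense to Abcc8, at 46123352. The regions in Abcc8 intron 10 (46145216 to 46147875, median 2.98) and intron 16 (46130624 to 46133182, median 2.60) came next. The gene starts were weaker, with medians of 1.40 at Nomo1 and 1.44 in the region that holds the Kcnj11 start, and the region over Abcc8 exons 15 and 16 (46133753 to 46136473) and the one upstream of Abcc8 (46181575 to 46182046) were the weakest of the 7, with medians of 0.466 and 0.437.

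**Figure D1:**
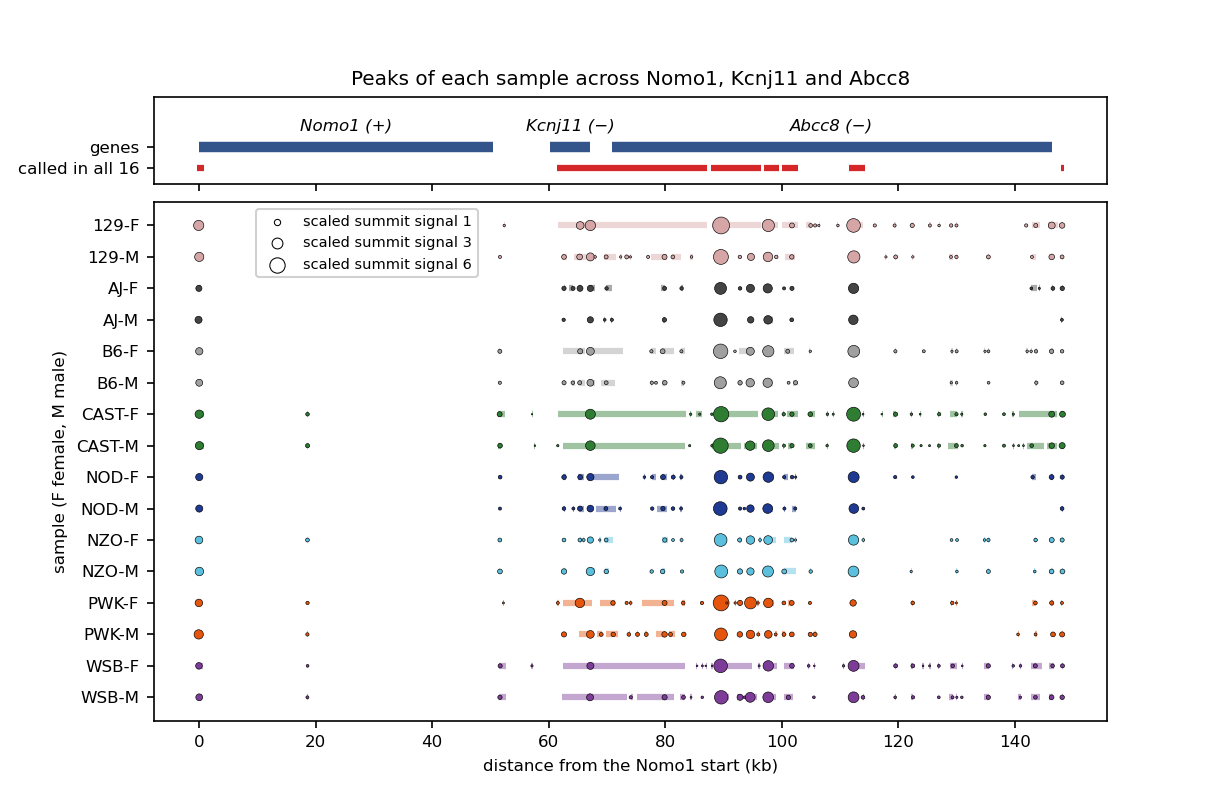
Peaks of each of the 16 samples (rows) over the locus, by distance in kb from the Nomo1 start. Bars are the single-sample peaks, circles their summits with area proportional to scaled signal, blue bars the genes with their strand, and red bars the 7 regions called in all 16 samples. The large circles lie within Abcc8 rather than at the gene starts, and the longest peaks, of up to 21999 bases, are those of CAST, WSB and the 129 female around Kcnj11.

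The region in Abcc8 intron 10 had the lowest adjusted p for strain of the 7 shared regions. Its scaled signal was 1.06 in the PWK female and 1.41 in the PWK male, and in the other 14 samples it ran from 2.31 to 4.99. Both PWK samples were thus below all others, with no overlap, which held for PWK in 3.28% of the shared regions. The CAST female (4.99) and male (4.65) and the 129 female (4.76) were the highest, and the 129 male had 3.81. The other strains lay between, at 2.71 and 2.31 in the female and the male of AJ, 3.58 and 2.43 in B6, 3.09 and 2.40 in NOD, 2.70 and 2.96 in NZO and 3.07 and 3.00 in WSB. In strain means, the order was CAST (4.82 ± 0.243), 129 (4.29 ± 0.670), WSB (3.03 ± 0.0467), B6 (3.01 ± 0.813), NZO (2.83 ± 0.184), NOD (2.75 ± 0.488), AJ (2.51 ± 0.282) and PWK (1.24 ± 0.242; SD, n = 2 each). Of the 7 steps between neighbours in this order, 2 were clear of the spread, those from 129 to WSB and from AJ to PWK.

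Strain was called in this region by limma's moderated F test (adjusted p = 0.00254), where 34.9% of the 42427 regions tested were called for strain and 3 of the 7 locus regions were. The study names an Abcc8 intron as less accessible in PWK in these same samples, and the PWK comparison was chosen for that. Against the mean of the other 7 strains, PWK was lower by 2.62-fold (log2 difference -1.39 ± 0.19, SE, limma adjusted p = 0.000574). It was the only 1 of the 7 regions called lower in PWK, and 5.69% of all regions were. A difference as low was found in 1.14% of the regions tested. CAST was higher by 1.83-fold (log2 difference 0.87 ± 0.19, SE, limma adjusted p = 0.00665). The strain effect and the PWK difference remained past the threshold under each of the 7 other settings and without each of the 16 samples in turn, with adjusted p-values for PWK up to 0.0276. The CAST difference was not called without the CAST female or without the CAST male, each of which leaves CAST with 1 sample, with adjusted p-values up to 0.126. Summits alone gave the same picture, since those of all 16 samples lay within 46145901 to 46146042. At this site PWK was lower by 1.40 on the log2 scale (SE 0.19, limma adjusted p = 0.000652), and the strain effect had an adjusted p of 0.00276.

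Markers of other islet cells were set beside this result, the delta cell list here and the other lists further below. The summed scaled signal of the 2 delta cell promoters was 0.0968 and 0 in PWK, 1.01 and 1.26 in CAST and from 0 to 1.04 in the other 6 strains. Hhex, a transcription factor, had a region in 10 samples and Sst, the gene of somatostatin, in the PWK female alone, so that both PWK samples were at 0 for Hhex. The sums of both 129 samples, the AJ female and the B6 male were 0 too. With so few peaks at its 2 promoters, the list cannot measure the share of delta cells. The part of cell makeup in the intron 10 result was not tested. In bulk islets, a change in the share of a cell type and a change of accessibility within it cannot be told apart.

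The same low signal of PWK was also expressed within its own libraries. The summit signal in intron 10 was divided by that of the strongest region of the locus in the same sample. This needs no scaling between samples, but a high divisor lowers the ratio. The scaled signal of the strongest region was 6.44 and 4.19 in the PWK female and male, and 3.65 to 7.26 in the others. This ratio was 0.165 in the PWK female and 0.336 in the PWK male, and it ran from 0.5 to 0.829 in the other 14 samples. In intron 16, the ratios were 0.361 and 0.358 in PWK, and 0.403 to 0.739 in the others. There limma did not call PWK lower. The share of all regions with such a separation in this ratio is not given here, so how rare it is stays unknown. In the other 4 shared regions the PWK samples did not both lie below or both above the others. Its ratios were 0.226 and 0.530 at the Nomo1 start (0.235 to 0.436 in the others), 0.356 and 0.366 in the region of the Kcnj11 start (0.213 to 0.426), 0.0927 and 0.142 over exons 15 and 16 (0.0508 to 0.141) and 0.0351 and 0.157 upstream of Abcc8 (0.0474 to 0.159). At intron 10 the CAST ratios, 0.829 and 0.775, were the highest of the 16.

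**Figure D2:**
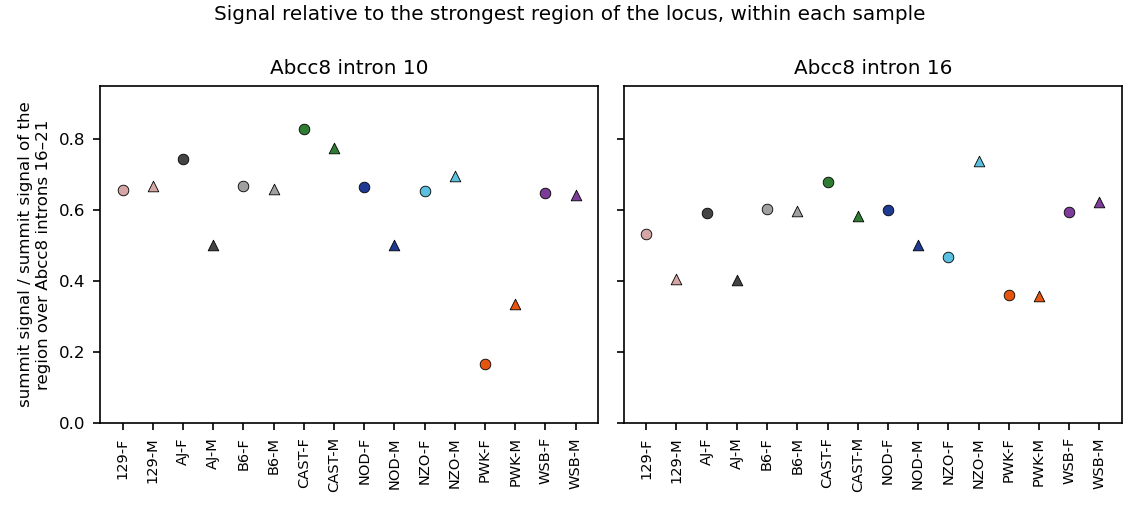
Summit signal of the Abcc8 intron 10 region (left) and intron 16 region (right) divided by that of the region over Abcc8 introns 16 to 21 in the same sample, for each of the 16 samples (circles female, triangles male). Both PWK samples are the lowest in both plots, at 0.165 and 0.336 on the left.

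At the Nomo1 start (46033361 to 46034548), the scaled signal was 2.67 in the 129 female and 2.14 in the 129 male. The PWK male, at 2.22, lay between them and the PWK female had 1.45. All samples of the other strains were below both 129 samples, with CAST at 1.79 and 1.71, NZO at 1.51 and 1.85, B6 at 1.36 and 1.23, NOD at 1.33 and 1.29, WSB at 1.11 and 1.19 and AJ at 0.954 and 1.29 in the female and the male. So 129 had the highest mean and AJ the lowest, a ratio of 2.15, and PWK, CAST and NZO, which followed 129 in the order, overlapped. Strain was called here (limma adjusted p = 0.0384). The call was lost without 10 of the 16 samples left out singly (adjusted p up to 0.112), namely the 129 female, the B6 male and either sample of AJ, CAST, NOD or WSB, and also under the 2 settings that used the deposited mean signal or regions called in at least 12 samples. Neither CAST (log2 difference 0.25 ± 0.20, SE, adjusted p = 0.400) nor PWK (0.27 ± 0.20, SE, adjusted p = 0.439) was called by limma against the other strains. The study describes this promoter as more accessible in CAST, and the CAST comparison was chosen for that. The study tested read counts for any difference between strains, and gave the CAST statement with a genome browser display. Summit signal was used here, and the strain test is closer to the study's test than the CAST comparison. Over the 7 other settings the CAST difference ran from -0.02 to 1.02. It was called higher only without centring, where 20903 of all 42427 regions were. The highest summit at the Nomo1 start lay between 46033610 and 46033756 in all 16 samples, 33 bases downstream of the annotated start at the median. Downstream in the gene, 1 region was found, in intron 11 (46052200 to 46052399), with a peak in 8 samples and both samples of CAST, PWK and WSB among them.

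The start of Kcnj11 was covered by a peak in all 16 samples, within a merged region of 25620 bases (46095200 to 46120819) that also holds Abcc8 exons 22 to 39. The single-sample peaks there differed in extent. The AJ male had 5 peaks over 1097 bases, and the 129 female had 2 peaks over 25099 bases. The widest peak measured 21999 bases in the CAST female, 21048 in the CAST male, 21047 in the WSB female and 20220 in the 129 female, and 8 of the 16 samples had a peak over 5 kb. The highest summit was at the Kcnj11 start, between 46100786 and 46100844, in 15 of 16 samples. In the PWK female it lay in Kcnj11 exon 2, at 46099040.

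The scaled signal of this region was 2.56 and 2.36 in the CAST female and male and 0.985 and 0.982 in those of AJ, which were below the other 14 samples, as AJ was in 3.46% of the shared regions. The other samples ran from 1.01 in the NZO female to 2.76 in the 129 female, so the 129 female was above both CAST samples. Strain was called (limma adjusted p = 0.0440), and CAST was 1.73-fold higher than the other strains (log2 difference 0.79 ± 0.24, SE, limma adjusted p = 0.0313). It was 1 of 3 locus regions called higher in CAST, of 7 tested, and 6.79% of all regions were. The 3 were this region, intron 10 and the region upstream of Abcc8. The strain call was lost without any of 12 samples (adjusted p up to 0.133) and the CAST call without either CAST sample, the NOD male or the WSB female (adjusted p up to 0.259). With regions called in at least 12 samples, neither call was made (adjusted p = 0.131 for strain and 0.0832 for CAST). With the deposited mean signal in place of the summit, the CAST difference was -0.10 on the log2 scale (adjusted p = 0.805). Of the 32 summit sites in the region, the Kcnj11 start was the 1 site listed in at least 12 samples, and the long peaks give 1 summit for all the DNA that they span.

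The start of Abcc8, where the first exon begins, was among the weaker places of the locus. A peak covered the annotated start in 11 samples and not in either AJ sample, the B6 male, the NOD male or the PWK male. The region around it (46174200 to 46181043, 6844 bases) was called in 14 samples, and in 9 when only peaks at or above the median −log10 p-value of their sample were used. Its scaled signal was 1.21 and 0.812 in 129, 0.914 and 0.801 in CAST, 0.642 and 0.564 in NZO, 0.452 and 0.594 in PWK, 0.443 and 0.580 in WSB, 0.5 and 0.277 in B6, 0.605 and 0 in NOD and 0.369 and 0 in AJ. All 4 values of 129 and CAST were above those of the other strains. In the B6 male and the WSB female the highest summit lay in Abcc8 intron 2 and not at the start. It was tested only with regions called in at least 12 samples admitted, and strain was not called (limma adjusted p = 0.313). The neighbouring region, upstream of the start with summits between 46181741 and 46181841, was called in all 16 samples, though in 8 when only those stronger peaks were used. Both CAST samples (0.895 and 0.956) were above the other 14 there, which ran from 0.218 in the AJ male to 0.793 in the 129 female. CAST stood above all others in this way in 4.71% of the shared regions. CAST was 2.18-fold higher (log2 difference 1.12 ± 0.36, SE, limma adjusted p = 0.0419), and strain was not called (adjusted p = 0.191). This CAST call was lost without any 1 of 8 samples, those of B6, CAST, NOD and WSB (adjusted p up to 0.287), under quantile normalization and with regions called in at least 12 samples.

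**Figure D3:**
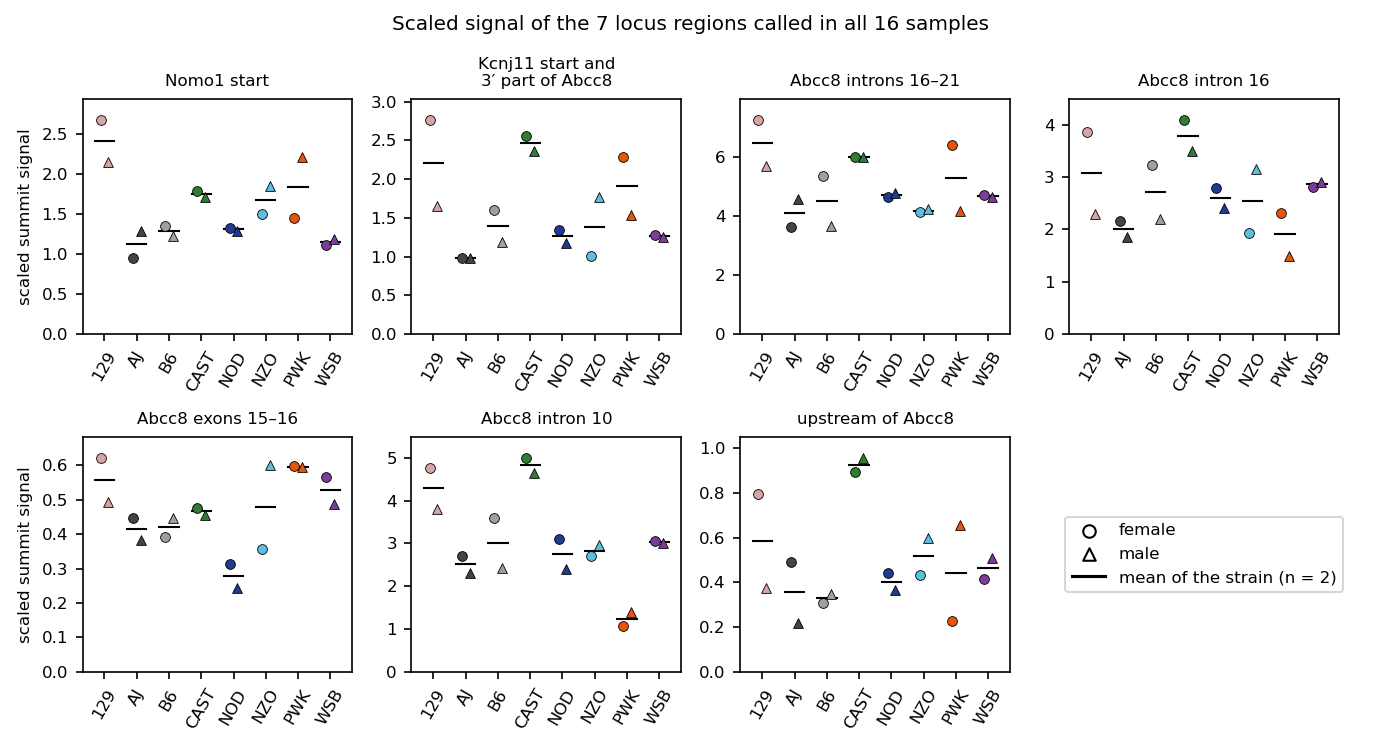
Scaled summit signal (vertical axes, each from 0) of the 7 locus regions called in all 16 samples, by strain, with the female as a circle, the male as a triangle and the strain mean as a line (n = 2). PWK stands below the other strains in Abcc8 intron 10, at 1.06 and 1.41, and CAST above them upstream of Abcc8, at 0.895 and 0.956.

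The remaining shared regions of Abcc8 showed no strain effect past the threshold. In the strongest region the strain means ran from 4.12 ± 0.674 in AJ to 6.48 ± 1.11 in 129 (SD, n = 2), no step between neighbours was clear of the spread, and the limma adjusted p was 0.283. In intron 16 they ran from 1.91 ± 0.582 in PWK to 3.79 ± 0.414 in CAST (adjusted p = 0.161), and PWK was lower by 0.55 on the log2 scale (SE 0.23, adjusted p = 0.167). Without the NZO female, this PWK difference was called by limma (adjusted p = 0.0341), and without either NZO sample strain and the higher CAST signal were called there (adjusted p for CAST of 0.0410 and 0.0117). Over exons 15 and 16, PWK had the highest mean, 0.595 ± 0.0021, and NOD the lowest, 0.279 ± 0.0495, with both NOD samples below all others, as they were in 1.31% of the shared regions (limma adjusted p for strain = 0.0858, and as low as 0.0122 without an NZO sample). Without the NZO male, PWK was called higher there (log2 difference 0.51, limma adjusted p = 0.0498). Without either NZO sample, the calls for strain, CAST and PWK also rose in number over all regions tested. The calls gained here were thus not confined to the locus. By strain means PWK was lowest in intron 10 and intron 16 and highest over exons 15 and 16. In the latter 2, however, its samples overlapped those of other strains. Its log2 differences from the other strains ran from -1.39 to 0.45 across the locus. Those of CAST ran from 0.03 to 1.12, and their median over the 7 was 0.62, where that over all regions was -0.01. With the deposited mean signal in place of the summit, the median of CAST over the 7 was -0.02.

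**Figure D4:**
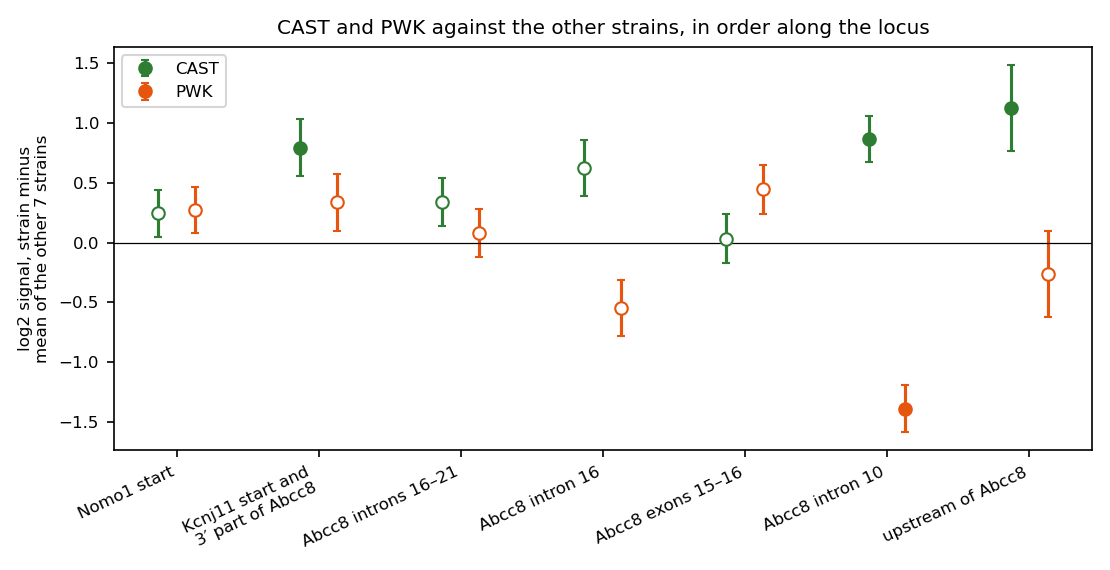
Log2 signal of CAST (green) and of PWK (orange) minus the mean of the other 7 strains, for the 7 shared regions in order along the chromosome. Bars are SE and filled points have a limma adjusted p under 0.05. The PWK value in Abcc8 intron 10, -1.39, is the 1 filled point below 0.

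Without the centring on the shared median of each sample, the signal of all regions shifted in these strains, by a median of 0.76 in CAST and -0.80 in PWK on the log2 scale. All 7 locus regions were then called higher in CAST, where 20903 of all 42427 regions were, and 3 of the 7 lower in PWK, where 23255 of all were. On that uncentred scale the PWK difference in intron 10 was -2.21.

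None of the 7 regions was called between wild-derived and classical strains (0.033% of all regions were), or between females and males (0.00943% of all regions were), by limma, and none had an unadjusted p under 0.05 in either test. Both fits rest on few samples or strains, with 3 strains against 5 for the classes. At summit sites, of which 5 of 87 in the locus were listed in all 16 samples, 2 were called for strain, and 33.6% of all such sites were. They were the Nomo1 start (limma adjusted p = 0.0393) and Abcc8 intron 10. With the Nomo1 start lost when any 1 of 10 samples was left out, intron 10 was then the 1 called site. Another site of intron 16 (46128261 to 46128395) was listed in 13 samples, from 1.05 in the AJ male to 3.65 in the PWK female. It was not listed in the 129 female, the CAST female and the WSB female, whose long peaks had their summit elsewhere.

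The other 26 regions of the locus reached a scaled signal of at most 1.21, and 10 of the 33 had a peak in 1 sample (30.3%, where 46.3% of all merged regions had). CAST had a peak in at least 1 sample in 19 of the 26 and in both samples in 14, WSB in 15 and 10, and 129 in 14 and 5. AJ had 1 and 0. In these strains, the number of regions called over the whole genome also differed. It ran from 73387 in the AJ male to 140599 in the CAST female and 167221 in the WSB female. Its part in the counts was not tested. The matching shares over all merged regions not called in all 16 samples are not given here. The counts by strain are therefore not set apart from the whole genome. Per 1000 regions called in a sample, the number of locus regions was lowest for the PWK male (0.0715) and highest for the 129 female (0.219). There were 3 regions with a peak in both CAST samples and in no other, at 46141454, 46157400 and 46171732 in Abcc8 introns 10, 6 and 3, all with a scaled signal of at most 0.235. The share of all merged regions with a peak in both CAST samples alone is not given here, so these 3 are not set apart from it.

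Among the regions not called in all 16 samples, the 3 with the widest spread of strain means were the Abcc8 start, a region between Nomo1 and Kcnj11 (46085072 to 46086366) and one in Abcc8 intron 4 (46168400 to 46169270). The region between the genes was called in 13 samples. Its scaled signal was 0.657 and 0.559 in CAST, 0.383 and 0.582 in NZO, 0.443 and 0.477 in WSB, 0.417 and 0.265 in B6, 0.360 and 0.244 in NOD and 0.155 and 0.246 in 129, and it was 0.113 and 0 in PWK and 0 in both AJ samples. With regions called in at least 12 samples admitted and 0 where no peak was listed, strain was called (limma adjusted p = 0.00202), CAST was higher (adjusted p = 0.0280) and PWK lower (adjusted p = 0.0231). These calls rest on the listed zeros, so no fold is given. In Abcc8 intron 4, WSB had 0.462 and 0.477, NZO 0.284 and 0.400, and AJ, NOD and PWK had no peak in either sample.

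The strain lists, in which the authors scored how well a peak repeated between the female and the male by an irreproducible discovery rate (IDR), were read at the same regions. At an IDR of 0.05 or less, 5 of the 33 regions were listed in all 8 strains (15.2%, where 6.28% of all merged regions were): the Nomo1 start, the region with the Kcnj11 start, the strongest region and those in introns 16 and 10. The region upstream of Abcc8 was listed at that IDR in CAST and WSB, the Abcc8 start in 4 strains, 129, CAST, PWK and WSB, and 17 regions in no strain (51.5%, and 73.8% of all). By strain, the number of locus regions listed ran from 5 in AJ, NOD and NZO to 14 in CAST and 13 in WSB. CAST and WSB also had the largest shares of all merged regions in their lists, 20.4% and 20.1%, and those of the other strains ran from 9.08% to 13%.

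Genes of the same pathways were set beside the locus by their promoter regions, those within 3 kb upstream of a gene start. Of the 4 genes of the ATP-sensitive potassium channel family, Kcnj11 and Abcc8 had a region shared by all 16 samples, Kcnj8, another pore subunit, had one in 5 samples, and Abcc9, another receptor subunit, had none. Of 7 genes of translocon complexes, 6 were tested and 3 were called for strain by limma, Nomo1, Ccdc47 (adjusted p = 0.0238) and Tmco1 (adjusted p = 0.0281), which encode proteins of the endoplasmic reticulum membrane, where 34.9% of all regions were called. None of the 6 was called in CAST or PWK. Of 26 genes of stimulus-secretion coupling, 14 were tested and 2 were called for strain, Kcnk16, a potassium channel (adjusted p = 0.0482), and Syt7, a calcium sensor of exocytosis (adjusted p = 0.0154). None was called in CAST. The median log2 difference over the 14 was 0.12 for CAST and 0.01 for PWK, and over all regions it was -0.01 and 0.02. Within 100 kb of the locus, Ush1c and Otog shared a promoter region that was not called for strain (limma adjusted p = 0.129), and Abcc6 had no region upstream of its start.

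The genes whose promoter signal was most like that of each member over the 16 samples were found among 10969 genes. For the Nomo1 start they included Sdhc (Pearson r = 0.962) and Grpel2 (0.941). For the region of the Kcnj11 start they were Gm45140 and Isy1, which share a region, (0.939) and Fam167a (0.938), and for the region upstream of Abcc8 Exosc9 (0.890) and Gja5 and Gpr89, which share a region (0.885). These are descriptions over samples that share strains, and they were picked as the highest of many.

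The promoters of beta cell markers had peaks in these samples. Of 8 marker promoters, 7 had a region in all 16 samples, Ins1 among them with a median scaled signal of 4.29. For strain, 3 of the 7 (Iapp, Mafa and Slc30a8) were called by limma, where 34.9% of all regions were. None was called in CAST or PWK. Ins2 had no region upstream of its annotated gene start. The summed scaled signal of the list was 13.5 and 15.02 in CAST, 11.8 and 13.3 in PWK and from 11.9 to 17.3 in the other 6 strains. All 3 alpha cell markers were shared too, with sums of 5.21 and 6.47 in PWK, 4.93 and 5.38 in CAST and 4.76 to 6.93 in the others. None of the 7 acinar, 4 endothelial, 5 leukocyte and 2 delta cell markers and 1 of the 4 duct markers, Cftr, had a shared region, and Cftr was called lower in CAST (log2 difference -0.86, limma adjusted p = 0.0122). Of all 42427 regions, 5676 were called lower in CAST. The sums of the acinar list were 0.25 and 0.597 in PWK, 0.25 and 0.257 in CAST and from 0.159 to 1.40 in the other 6 strains, and 3 of its 7 genes (Cela1, Ptf1a and Cel) were at 0 in every sample. Those of the duct list were 0.5 and 0.758 in PWK, 0.779 and 1.03 in CAST and from 0.506 to 1.82 in the others. Those of the endothelial list were 0.5 and 0.516, 0.419 and 0.581, and from 0.172 to 0.727 in the same order, and those of the leukocyte list 0.323 and 0.406, 0.412 and 0.619, and from 0 to 1.55, with Cd3e and Itgam at 0 in every sample.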

How the data were processed

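ATAC-seq peak lists of 16 islet samples (8 strains, 1 female and 1 male each) were used. Reads had been trimmed by the authors (cutadapt 2.0), aligned to mm10 (bowtie2 2.3.4.1) and freed of duplicates (Picard 2.9.2), and MOSAiCS had called the peaks of each sample (false discovery rate 0.05). No shift of reads for the transposase is given in the sources used here. Every strain was aligned to the B6 genome, and the effect of this on the signal was not tested here. The study also aligned to individualized genomes and judged the difference small. It reported no excess of peaks specific to B6. Both results are for the whole genome. The deposited signal is a whole number per peak, taken at its summit and not scaled to depth. The deposited −log10 p-value ranked the peaks for 1 alternative, and a deposited mean signal score, whose averaging the lists leave undefined, gave another. The strain lists hold a deposited signal, the sum over both sexes, and a −log10 IDR. Depth per sample is unknown here, so no counting interval is given.

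Peaks that touched or overlapped were merged (chromosome Y left out), and the highest summit was the signal of a sample in a region. The fits used limma 3.58.1 (R 4.3.3) on log2(signal + 1), centred on each sample's median over the 42427 regions called in all 16, with strain and sex in the model and Benjamini-Hochberg adjustment over all of them. This replaced the count test of the study, because the lists hold signal. A fold change on this scale is understated where signal is low. Classes were compared on 8 strain means. Regions over 5 kb were read through single-sample peaks and through summit sites, summits within 200 bases being joined. The annotation was GENCODE M21, on the same assembly as mm10. The fits were tested only on simulated data with planted shifts larger than any centred difference of the locus. Effects of the sizes reported were not covered by that test. No batch was given in the labels, and nothing there says how many animals a sample holds, so p-values measure only the spread between these samples.

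The members, the lists and the comparisons of CAST and PWK were chosen with earlier results of these data known. The regions named are the promoters of the 3 genes, those called in all 16 samples, the 3 others with the widest spread of strain means, the genes most alike to each promoter and preset lists. Other regions and strains were named after their values were seen. Columns of the authors' own comparisons were not in these lists. Results for some genes of the lists and comparisons are not reported here.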

Additional observations from a re-analysis of the deposited data

How the results depend on the processing

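Over 7 other settings and 16 fits that each left out 1 sample, the strain effect and the low PWK signal in Abcc8 intron 10 kept direction and call. The number of locus regions called for strain, 3 of 7 as reported, was 6 without centring and 1 with the deposited mean signal, and from 1 to 5 without single samples (1 without the 129 female, the B6 male or any sample of AJ, CAST, NOD or WSB, and 5 without either NZO sample). The number called in CAST, 3 and all higher, was 7 higher without centring, 2 higher and 1 lower with the deposited mean signal, 2 higher of 10 with regions called in at least 12 samples, 2 higher of 5 with the stronger peaks (at or above the median −log10 p-value of their sample), and from 0 to 4 without single samples (0 without either CAST sample, 1 without the NOD male or the WSB female). The number called in PWK, 1, was 3 without centring, 2 of 10 with regions called in at least 12 samples, and from 1 to 2 without single samples (2 lower without the NZO female, 1 lower and 1 higher without the NZO male). For summit sites, 2 of 5 became 5 without centring and from 1 to 3 without single samples. With the deposited mean signal, CAST reversed to -0.10 (log2) in the region of the Kcnj11 start (limma adjusted p = 0.805) and to -0.76 in the strongest region, where it was called lower (limma adjusted p = 0.0466) and was 0.34 as reported; the cause was not tested. When a peak had to cover at least 0.5 of a merged region, 0 of the 33 regions were called in all 16 samples in place of 7, and merging peaks within 100 bases or taking only the stronger peaks gave 7 and 5. Counts for strain class and sex were 0 in every setting run. Over all 42427 regions, 14823 were called for strain as reported, 26417 without centring and 11464 with the deposited mean signal. For CAST these counts were 8558, 21894 and 6655, and for PWK 4602, 23498 and 4347. With regions called in at least 12 samples, CAST had 8922 and PWK 7022 of 69265. Of 35679 summit sites, 11982 were called as reported and 21595 without centring. Each count as reported was higher without either NZO sample and lower without either CAST sample. Replicate numbers pair samples across strains only as female and male, and the sex term serves as the block: without it (no replicate block), 3, 3 and 1 regions were called for strain, CAST and PWK, as with it. Where 1 sample was left out, the other sample of its strain was assumed to vary like the rest. Unknown depth and 2 samples per strain limit what these lists can show.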
